A study of Mus musculus with 21 samples.

Results

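Cox6b2, Gdpd3, Srp54a, Hddc3, Trim72, Gm3435 and Erdr1 are 7 of the 24421 gene symbols counted in mouse liver. They were picked because their levels were alike in ERK1 KO and double KO livers, which share the loss of Erk1, and different in ERK2 KO livers. The values of those contrasts chose the genes, so their levels are given as a description and no test is attached to them. All 7 passed the filter on low counts, among 14154 genes tested in 21 libraries.

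Liver RNA was sequenced in 7 libraries per genotype, 3 weeks after a single subcutaneous injection of 3 mg of tamoxifen. The ERK1 KO carried Erk1-/- with the Erk2 deletion allele but no Cre. The ERK2 KO carried the Erk2 deletion allele with Cre and no named Erk1 mutation, and the double KO carried Erk1-/-, the Erk2 allele and Cre. The label for Cre, ERt-Alb-Cre, names the albumin promoter, which is active in hepatocytes, and the oestrogen-receptor form that tamoxifen switches on, so Erk2 was removed only from cells that express Cre. Every group received tamoxifen, and no wild-type group was analysed here. A contrast of ERK1 KO with ERK2 KO therefore includes Cre, while double KO and ERK2 KO both carry it.

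ERK1 and ERK2 are the last kinases of the RAS-RAF-MEK cascade. The gene for ERK1 is Mapk3. A constitutive knockout allele is carried through breeding together with the stretch of chromosome around it, and genes in such a stretch, or elsewhere in a separately bred line, can differ from another line through inherited sequence variants. Transcription can also run past the end of a disrupted gene into the next gene on the same strand. The 7 genes encode unrelated products: a lysophospholipase, a membrane repair protein, a nucleotide hydrolase, a cytochrome oxidase subunit, a protein-targeting subunit, a predicted gene and a regulator named for red cell differentiation.

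Of the 7 genes, 4 lie on chromosome 7, which also holds Mapk3 (chr7:126759626-126765816, plus strand, GRCm38). Gdpd3 (chr7:126766414-126775645, plus strand) begins 597 bases after the end of Mapk3. Trim72 (chr7:128003462-128011393, plus strand) begins 1.24 Mb after the start of Mapk3, and Hddc3 (chr7:80343075-80346716, plus strand) lies at -46.42 Mb. Cox6b2 (chr7:4751792-4753094, minus strand) is at the other end of the chromosome, at -122.01 Mb. Srp54a is on chromosome 12 (chr12:55080476-55115367, plus strand), Gm3435 on chromosome 17 (chr17:15009840-15022449, plus strand), and Erdr1, annotated as a transcribed pseudogene, on the X chromosome (chrX:170010526-170018797).

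The 250 bases before the annotated start are shown for 3 genes. Gdpd3 was taken because the window lies wholly between it and Mapk3. Cox6b2 was taken because it showed the opposite direction, as Trim72 did too, and Gm3435 because it had no count in 5 ERK2 KO libraries. The windows are RefSeq sequence of GRCm38.p6, written 5′ to 3′ on the strand of the gene, with motif matches in capitals.
Gdpd3, chr7:126766164-126766413, plus strand: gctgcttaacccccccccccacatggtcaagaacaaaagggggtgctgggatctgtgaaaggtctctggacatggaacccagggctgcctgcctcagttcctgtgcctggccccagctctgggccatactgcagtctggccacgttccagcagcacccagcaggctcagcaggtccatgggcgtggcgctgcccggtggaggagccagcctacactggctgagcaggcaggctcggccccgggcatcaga
Cox6b2, chr7:4753095-4753344, minus strand: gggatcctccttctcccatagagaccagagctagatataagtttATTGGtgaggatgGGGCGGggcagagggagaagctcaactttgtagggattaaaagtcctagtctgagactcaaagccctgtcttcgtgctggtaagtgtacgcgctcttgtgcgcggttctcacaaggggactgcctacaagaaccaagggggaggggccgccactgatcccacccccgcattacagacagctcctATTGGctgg
Gm3435, chr17:15009590-15009839, plus strand: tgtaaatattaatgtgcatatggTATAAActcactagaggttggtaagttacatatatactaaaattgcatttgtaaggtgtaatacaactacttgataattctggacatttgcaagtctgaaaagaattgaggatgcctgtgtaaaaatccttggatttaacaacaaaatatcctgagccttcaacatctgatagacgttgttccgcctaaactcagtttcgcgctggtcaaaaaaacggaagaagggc

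Several short motifs were searched on both strands. The TATA box was searched as TATAAA. The motif of the factor NF-Y was searched as CCAAT. For the GC box the letters were GGGCGG and for the E-box they were CACGTG. The AP-1 site was read as TGANTCA, with any base at N, and the core of ETS factor sites as CCGGAAG. The Gdpd3 window held none of them and was 65.2% G or C, against a median of 52.4% over 32851 promoter windows of the same length. The Cox6b2 window held CCAAT on the other strand, printed as ATTGG, at 206 to 202 and at 9 to 5 bases before the start, and 1 GC box at 193 to 188. CCAAT was found in 33.8% of all windows and the GC box in 32.7%. In the Gm3435 window TATAAA stood 227 to 222 bases before the start, a motif held by 12.4% of all windows. The E-box was in 6.02%, the AP-1 site in 6.75% and the ETS core in 6.91% of them. Such matches describe the letters of the reference genome, and the sequence carried by these mice was not analysed here.

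Mapk3 was examined first, because 5 libraries stood apart in the check of genotype. In the other 16 libraries Mapk3 was at 9.998 ± 1.42 CPM (counts scaled to a common library total) in ERK1 KO (SD, n = 5), 35.6 ± 2.77 in ERK2 KO (n = 5) and 6.78 ± 1.12 in double KO (n = 6). The library labelled ERK1 KO 2 had 39.9 CPM and that labelled double KO 7 had 36.5 CPM, both at the ERK2 KO level. At the Erk1-null level were the library labelled ERK2 KO 5, with 9.45 CPM, and that labelled ERK2 KO 7, with 10.9 CPM. Mapk3 in the library labelled ERK1 KO 1 was 6.499 CPM and did not go against its label.

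Because Mapk3 was part of the choice of the 16, its values there are a description. Levels and differences of the 7 genes are given with all 21 libraries as labelled and for the 16.

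Total counts were 37703680 to 45460470 per library, so 1 count was worth about the same in each. The labels name the libraries as separate samples only, so the tests weigh differences against a spread among samples that may be partly technical. Marker genes of hepatocytes summed to 66150 to 87010 CPM in ERK2 KO, 89790 to 120700 in ERK1 KO and 22880 to 27930 in double KO among the 16, so the Erk1-null groups lay on opposite sides of ERK2 KO. In bulk tissue, fewer cells of a type and less RNA per cell cannot be told apart.

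Gdpd3, a lysophospholipase D that releases lysophosphatidic acid, was near absent in ERK2 KO and present in both Erk1-null groups. As labelled, the lowest, median and highest levels were 0.589, 20.4 and 31.3 CPM in ERK1 KO, 0.157, 18.4 and 43.5 in double KO, and 0.225, 0.415 and 13.8 in ERK2 KO. The groups overlapped, through libraries set apart. The means of the 16 were 20.7 ± 7.12 CPM in ERK1 KO, 22.1 ± 11.1 in double KO and 0.446 ± 0.211 in ERK2 KO, with no overlap between Erk1-null and ERK2 KO libraries. Pooled counts gave a level 48.3-fold higher in the Erk1-null groups, and the fitted log2 difference was 5.44 ± 0.39 (SE), against 2.20 ± 0.87 for all 21. The gap of 597 bases and the shared strand mean that transcripts running on from Mapk3 would be counted in Gdpd3. Whether any Gdpd3 read began in Mapk3 was not tested, since the table holds 1 count per gene.

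Trim72, a tripartite-motif protein of muscle that patches damaged membrane, went the other way at a low level. ERK2 KO libraries ran from 0.0264 through a median of 0.424 to 0.814 CPM. ERK1 KO libraries ran from 0 through 0.0478 to 0.330 and double KO libraries from 0.0226 through 0.0487 to 1.34 CPM, the top value being that of double KO 7. The library at 0, ERK1 KO 7, allows up to 0.0712 CPM (3 counts, counting error only). Among the 16 the Erk1-null and ERK2 KO libraries did not overlap, and Trim72 was 8.89-fold higher in ERK2 KO, resting on 110 counts in 5 libraries against 29 counts in 11. The log2 difference of the Erk1-null groups was -3.23 ± 0.47, against -1.46 ± 0.76 for all 21.

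Because Trim72 belongs to muscle, a list of 12 skeletal muscle markers was read beside it. Ckm, Myh2 and Pvalb were at 0 in every library. The summed level of the list was 0.750 to 1.61 CPM in ERK2 KO, 1.05 to 1.96 in ERK1 KO and 1.39 to 2.82 in double KO among the 16. The muscle sum was thus not higher in the group where Trim72 was higher. The library labelled double KO 7, with the highest Trim72, had a muscle sum of 0.918 CPM.

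Hddc3, an HD-domain hydrolase that acts on the nucleotide ppGpp and on NADPH, was higher in the Erk1-null groups. As labelled, ERK1 KO ran from 1.18 through 6.46 to 12.2 CPM, double KO from 1.27 through 8.23 to 17.4, and ERK2 KO from 0.763 through 1.70 to 10.6. Leaving out the libraries set apart, the means were 8.54 ± 3.04, 9.30 ± 5.61 and 1.34 ± 0.505 CPM. The groups still overlapped, because double KO 5 had Hddc3 at 1.27 CPM (52 counts) inside the ERK2 KO range. That library had the highest Gdpd3 of all 21. The pooled level was 6.59-fold higher in the Erk1-null groups, with a log2 difference of 2.59 ± 0.47, against 1.06 ± 0.57 for all 21.

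Cox6b2, the testis form of subunit VIb of cytochrome c oxidase, was found in ERK2 KO livers and was low elsewhere. ERK2 KO libraries 1, 2, 3, 4 and 6 were at 6.40, 5.90, 6.80, 11.98 and 10.9 CPM. All ERK1 KO libraries were between 0.135 and 0.535 CPM and all double KO libraries between 0.105 and 0.374. The library labelled ERK2 KO 5 was at 0.137 CPM and that labelled ERK2 KO 7 at 0.343 CPM, inside those ranges. Among the 16 the level was 33.2-fold higher in ERK2 KO, with a log2 difference of the Erk1-null groups of -5.18 ± 0.27. For all 21 it was -4.72 ± 0.53, the least moved of the 7 by the libraries set apart in relation to its size.

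Testis germ cell markers were read beside Cox6b2. Prm2 and Tnp1, which define late germ cells, were at 0 in every library. The 8 markers summed to 2.67 to 3.71 CPM in ERK2 KO, 1.97 to 3.37 in ERK1 KO and 5.74 to 14.1 in double KO among the 16. The group with high Cox6b2 was not the group with the highest sum.

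Srp54a encodes the subunit of the signal recognition particle that binds signal peptides. As labelled, ERK1 KO ran from 0.0942 through 3.58 to 5.37 CPM, double KO from 0.105 through 3.02 to 4.84, and ERK2 KO from 0.153 through 0.180 to 4.67. Among the 16 the means were 3.82 ± 1.401, 3.53 ± 1.05 and 0.180 ± 0.0319 CPM, and the Erk1-null and ERK2 KO libraries did not overlap. The pooled level was 20.5-fold higher in the Erk1-null groups, with a log2 difference of 4.19 ± 0.31, against 1.15 ± 0.74 for all 21. The gene has near-identical copies: 66.6% of the distinct 100-base stretches in its annotated transcripts also occur in Srp54b or Srp54c. Reads can be split among the copies, so the Srp54a count is uncertain. Neither Srp54b nor Srp54c passed the filter on low counts in 21 libraries.

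Gm3435, a predicted gene whose function is not known here, had 0 counts in ERK2 KO libraries 1, 2, 3, 4 and 6. ERK1 KO libraries ran from 0.546 through 0.730 to 0.970 CPM, with 23 to 43 counts each. Double KO libraries ran from 0 in double KO 7 through 0.721 to 1.28 CPM. The library labelled ERK2 KO 5 had 0.733 CPM and that labelled ERK2 KO 7 had 0.449 CPM. Among the 16, the 0 counts over the ERK2 KO group allow up to 0.0154 CPM (3 counts over the group), so the pooled level of 0.763 CPM was at least 49.5-fold higher in the Erk1-null groups. Of its 100-base stretches, 83.3% also occur in Ermard or 9030025P20Rik, the tested genes on either side, so this count is uncertain as well.

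Erdr1, named as a regulator of erythroid differentiation, had the smallest difference of the 7. As labelled, ERK1 KO ran from 0.316 through 31.0 to 63.0 CPM, double KO from 15.5 through 35.4 to 63.4, and ERK2 KO from 2.91 through 12.03 to 88.7. The lowest and the highest of all 21 were both libraries set apart, ERK1 KO 1 with 14 counts and ERK2 KO 7. Within the 16 the means were 46.3 ± 19.3, 42.2 ± 18.8 and 9.30 ± 4.36 CPM, with no overlap between Erk1-null and ERK2 KO. The pooled level was 4.71-fold higher in the Erk1-null groups, with a log2 difference of 2.10 ± 0.41, against 0.42 ± 0.62 for all 21. The annotation used for transcripts holds no Erdr1 entry, so its sequence overlap with other genes was not measured.

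**Figure D1:**
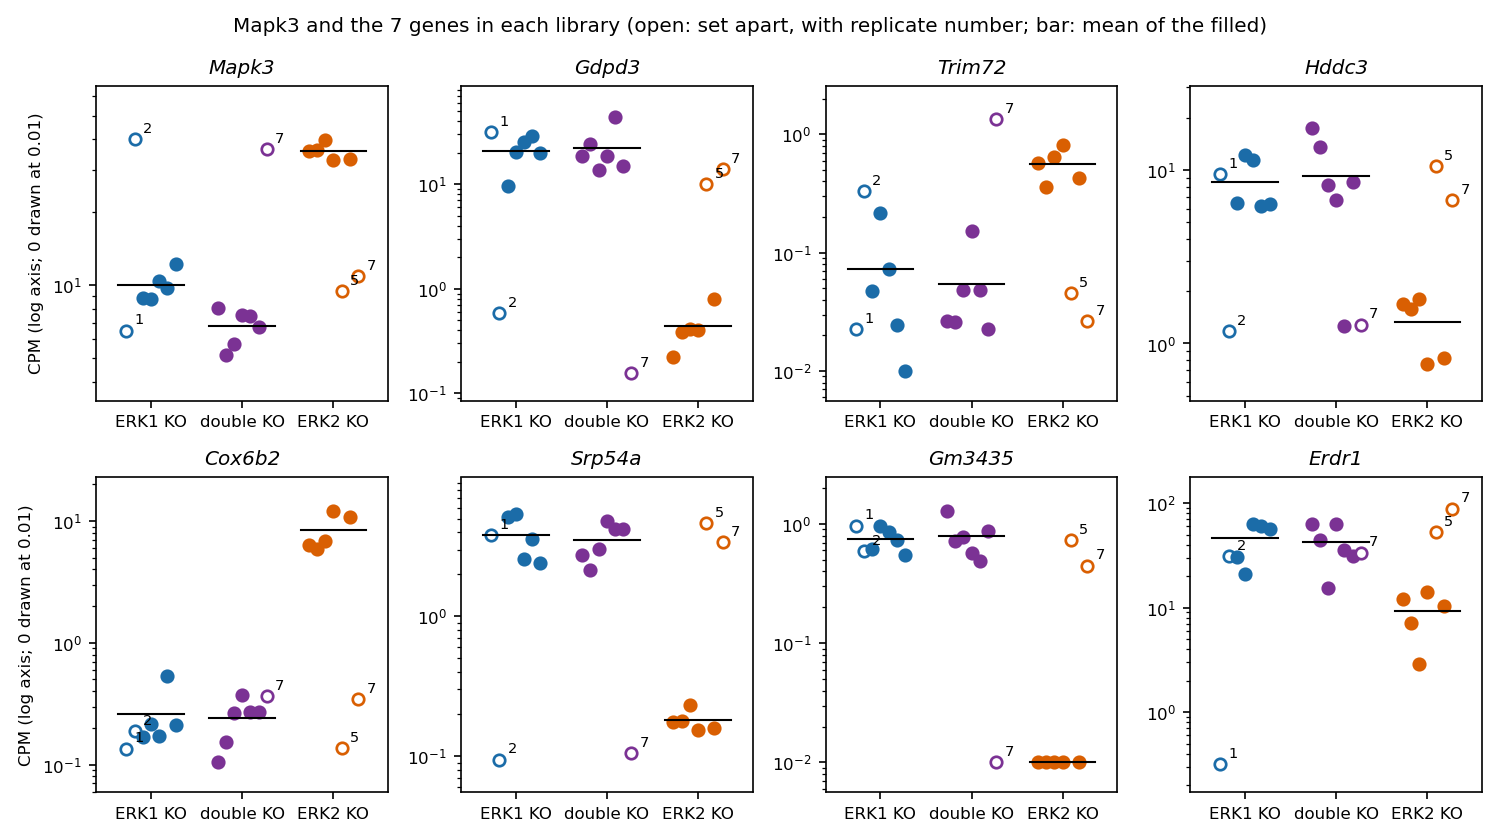
Levels of Mapk3 and the 7 genes in CPM (log axis, 0 drawn at the bottom) for every library by labelled group. Filled points are the 16 libraries with their mean as a bar, and open points with replicate numbers are the 5 set apart. Cox6b2 is high in ERK2 KO libraries 1, 2, 3, 4 and 6, and Gm3435 is at 0 in the same libraries.

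In a direct comparison of the Erk1-null groups with each other, the libraries overlapped for each of the 7, beside 0.523% of genes that did not overlap in 21 libraries and 26.0% in the 16. Among the 16, the log2 difference of double KO minus ERK1 KO was -0.04 ± 0.30 for Gdpd3, -0.48 ± 0.70 for Trim72 and 0.00 ± 0.45 for Hddc3. It was -0.22 ± 0.37 for Cox6b2, -0.23 ± 0.25 for Srp54a, -0.04 ± 0.29 for Gm3435 and -0.25 ± 0.40 for Erdr1. The selection asked for this likeness, and the SEs show how large a difference these libraries could have hidden.

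The 5 libraries set apart were read gene by gene, by whether each level lay nearer the mean of the Erk1-null or of the ERK2 KO libraries among the 16, on the scale log2(CPM + 0.02). In the library labelled ERK2 KO 5 and in that labelled ERK2 KO 7, all 7 genes were nearer the Erk1-null mean. Gdpd3 was at 9.96 and 13.8 CPM, Hddc3 at 10.6 and 6.70, Srp54a at 4.67 and 3.40 and Erdr1 at 52.6 and 88.7. Trim72 had 2 counts and 1 count there. In ERK2 KO 7, Gm3435 lay below and Erdr1 above the range of the Erk1-null libraries among the 16.

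In the library labelled ERK1 KO 1, 6 of the 7 were nearer the Erk1-null mean, with Gdpd3 at 31.3 CPM and Cox6b2 at 0.135. The exception was Erdr1 at 0.316 CPM, lower than in any other library. The library labelled ERK1 KO 2, with Mapk3 at the ERK2 KO level, was divided. Gdpd3 at 0.589 CPM, Trim72 at 0.330, Hddc3 at 1.18 and Srp54a at 0.0942 were nearer ERK2 KO. Cox6b2 at 0.188 CPM, Gm3435 at 0.589 (25 counts) and Erdr1 at 31.0 were nearer the Erk1-null mean.

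The library labelled double KO 7, also with Mapk3 at the ERK2 KO level, was divided in a similar way. Gdpd3 at 0.157 CPM, Trim72 at 1.34, Hddc3 at 1.28, Srp54a at 0.105 and Gm3435 at 0 were nearer ERK2 KO. Cox6b2 at 0.367 CPM and Erdr1 at 33.7 were nearer the Erk1-null mean. Gdpd3, Trim72, Hddc3 and Srp54a thus stood on the side given by the Mapk3 level in each of the 5 libraries. In ERK1 KO 2 and double KO 7, Cox6b2 and Erdr1 stood on the side given by the label, and Gm3435 did so in ERK1 KO 2 alone. No file gives a genotype assay, so whether labels or mice differ from the design was not tested.

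**Figure D2:**
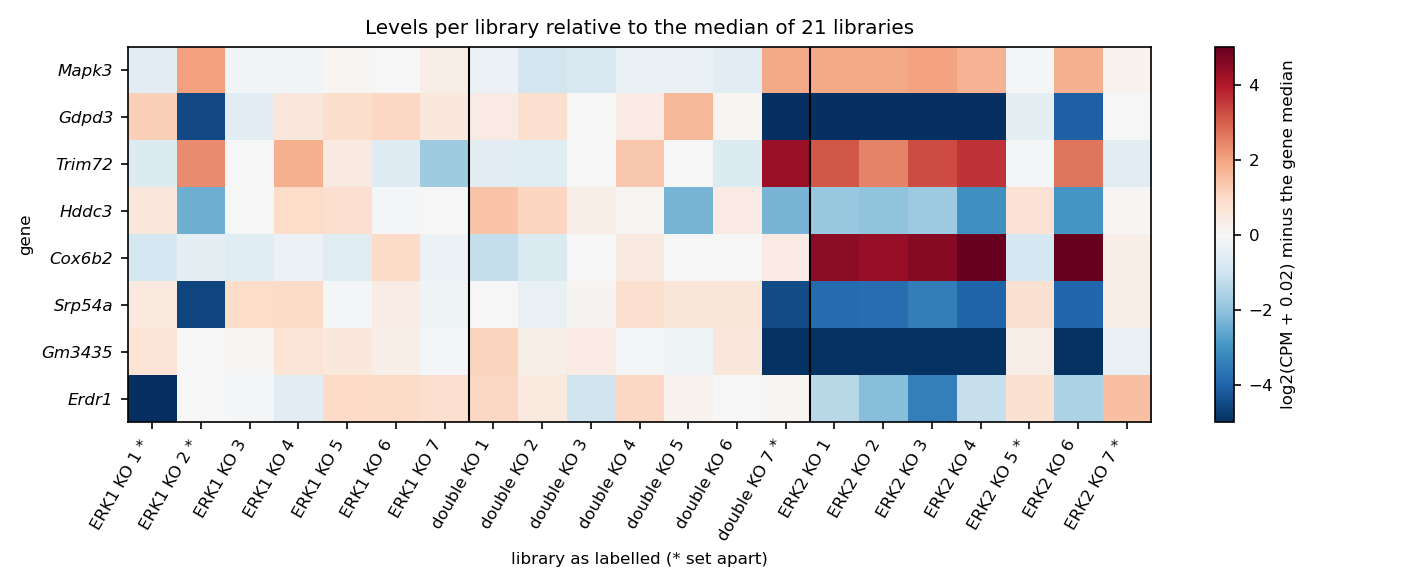
Level of Mapk3 and each of the 7 genes in each library, as log2(CPM + 0.02) minus the median of that gene over 21 libraries (red higher, blue lower; colours saturate at the ends of the scale). Asterisks mark the 5 libraries set apart. ERK2 KO 5 and ERK2 KO 7 lie nearer the Erk1-null mean in all 7 genes, while ERK1 KO 2 and double KO 7 are divided.

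Counts of calls (adjusted p under 0.05 by edgeR's quasi-likelihood test over all tested genes) are given as a description, since the contrasts chose the genes. For ERK1 KO against ERK2 KO with 21 libraries, Cox6b2 was the 1 gene called among 14154, a background of 0.00707%; 1385 genes (9.79%) had an unadjusted p under 0.05 and DESeq2 called 21. Cox6b2 was no longer called when ERK1 KO 2, 3, 4, 5 or 7 was left out. Double KO against ERK2 KO gave 1 of the 7 beside a background of 44.6%. For both Erk1-null groups against ERK2 KO it was 1 of 7 beside 23.1%. Double KO against ERK1 KO gave 0 of 7 by edgeR, beside 24% of all genes. By DESeq2 it was 0 of 7, beside 4231 of 14154 genes. At an unadjusted p under 0.05 it was 0 of 7 too, and the share of all genes at that threshold is not given here.

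Leaving out libraries set apart changed some of these counts. For the Erk1-null groups against ERK2 KO, 4 of 7 were called without double KO 7, 3 without ERK2 KO 5 and 2 without ERK1 KO 2 or ERK2 KO 7. Of all genes, 5297 of 14262 were called without double KO 7, against 3267 of 14154 with all 21 libraries. Without ERK2 KO 5, 1723 genes were called higher and 1173 lower of 14254. These were 1877 and 1346 of 14253 without ERK1 KO 2, and 1578 and 1131 of 14254 without ERK2 KO 7. Double KO against ERK2 KO had 4 called without double KO 7 or ERK2 KO 5 and 2 without ERK2 KO 7. Of all genes, 7522 of 14262 were called in that contrast without double KO 7, against 6312 of 14154 with all 21. Over all fits with 1 library left out it was 5398 to 7522. Calls over all genes thus rose too without double KO 7 in both contrasts. Whether the 7 rose by more than all genes was not tested. With the 16 libraries, 7 of 7 were called in each of the 3 contrasts with ERK2 KO, beside backgrounds of 0.722% for ERK1 KO, 51.2% for double KO and 31.2% for both groups together. Between the Erk1-null groups it was 0 of 7 beside 45.9%. The libraries of the Erk1-null groups and of ERK2 KO did not overlap for 0 of 7 genes with 21 libraries, where the background was 0.0283%, and for 6 of 7 with the 16, where it was 2.14%.

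The selection was then applied to all genes: called against ERK2 KO in ERK1 KO and in double KO with the same sign, and not called between the Erk1-null groups, in the 16 libraries. It was met by 36 genes (0.252% of 14261), the 7 and 29 others. Among the 36, 9 had a log2 difference of more than 2 in either direction, and these were the 7, Serpina3c at -4.29 and Cnksr1 at 2.09. Serpina3c, a serine protease inhibitor, was at 4.82 ± 5.02 CPM in ERK2 KO, so its SD exceeded its mean. Erdr1 at 2.10 was the smallest of the 7 in size, beside Cnksr1 at 2.09 and Kif12, a kinesin, at 1.80. The remaining genes changed less, such as Wdfy1 at 0.95, Lamb2 at 0.74 and Akr1c13 at -0.45. Chromosome 7 held 6 of the 36 (16.7%), against 7.77% of the tested genes with a position, and 4 of those 6 are among the 7. The 7 were chosen from these contrasts, so neither their place among the largest of the 36 nor the share of 16.7% is independent of that choice. Of the 29 others, only Plekhg2 at 0.65 and Cib1 at -0.56 were on chromosome 7. Cib1 lies close to Hddc3 (chr7:80227156-80232805).

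Position allows tests that the selection did not use, because neighbouring genes were not chosen by their levels. Of the 74 genes tested within 1 Mb of Mapk3, leaving out the 7 genes and Mapk3, 15 (20.3%) were called between the Erk1-null groups and ERK2 KO in 21 libraries, beside 23.1% of all genes. With the 16 libraries it was 15 of 73 (20.5%) beside 31.2%. From 1 to 5 Mb the shares were 31.7% and 46.7%, from 5 to 20 Mb 22.3% and 26.8%, and farther along chromosome 7 22.3% and 30.3%. Other chromosomes had 23.1% and 31.3%. The share within 1 Mb was thus close to, or below, that of other chromosomes. From 1 to 5 Mb, the band in which Trim72 lies, it was above that of other chromosomes in both sets. The difference between bands was not tested. For ERK1 KO against ERK2 KO, 0 of these genes within 20 Mb were called in either set, beside 0.00707% of all genes in the 21 and 0.722% in the 16. With shares that low, a 0 cannot tell these bands from other genes. None of the genes within 1 Mb had a log2 difference above 2 in size.

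The called genes within 1 Mb with the largest differences were Coro1a, an actin regulator of leukocytes, Nupr1, a stress-induced nuclear protein, Apobr, a lipoprotein receptor of macrophages, Tbx6, a T-box factor, and Itgal, a leukocyte integrin. Coro1a was at 14.8 ± 5.78 CPM in ERK1 KO, 29.5 ± 16.6 in double KO and 6.80 ± 2.49 in ERK2 KO (SD, n = 7 each), a log2 difference of 1.49 ± 0.34 for the Erk1-null groups (edgeR adjusted p = 0.0121). Nupr1 differed by 1.39 ± 0.34 (edgeR adjusted p = 0.0131) and Apobr by 1.22 ± 0.34 (edgeR adjusted p = 0.0206). These 3 kept their calls when any 1 library was left out. Tbx6 differed by -0.91 ± 0.29 (edgeR adjusted p = 0.0332) and lost its call without double KO 4 or ERK2 KO 4, 5 or 7. Itgal differed by 0.88 ± 0.31 (edgeR adjusted p = 0.0442) and lost its call in 12 of 21 such fits, by ERK1 KO 1, 2 or 6, double KO 2, 4 or 5, or any ERK2 KO library but 3. Among the 16 neither was called, with Tbx6 at -0.70 (edgeR adjusted p = 0.103) and Itgal at 0.95 (edgeR adjusted p = 0.0502).

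Most of these 5 differed between the Erk1-null groups as well. Among the 16, Coro1a, Nupr1, Apobr and Tbx6 differed between double KO and ERK1 KO by 1.24, 1.39, 1.41 and -1.08, with edgeR adjusted p from 0.0015 to 0.0263. Itgal differed by 0.42 (edgeR adjusted p = 0.379). Against ERK2 KO, ERK1 KO alone was at 1.01 for Coro1a, 0.74 for Itgal, 0.51 for Apobr, 0.48 for Nupr1 and -0.16 for Tbx6. None of these was called, with edgeR adjusted p from 0.151 to 0.854. A sum of 5 macrophage markers moved with them, at 124.3 to 426.3 CPM in ERK2 KO, 162.8 to 632.8 in ERK1 KO and 471.8 to 1399 in double KO among the 16. Its part in the calls was not tested. For ERK1 KO against ERK2 KO, 0 genes within 1 Mb were called by edgeR in either set of libraries, beside 0.00707% of all genes in the 21 and 0.722% in the 16. By DESeq2 in the 21 it was 0, beside 21 of 14154 genes. At an unadjusted p under 0.05 there were 5 of 74 in the 21, beside 9.79% of all genes. In the 16 there were 11 of 73, and the share of all genes at that threshold is not given here.

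**Figure D3:**
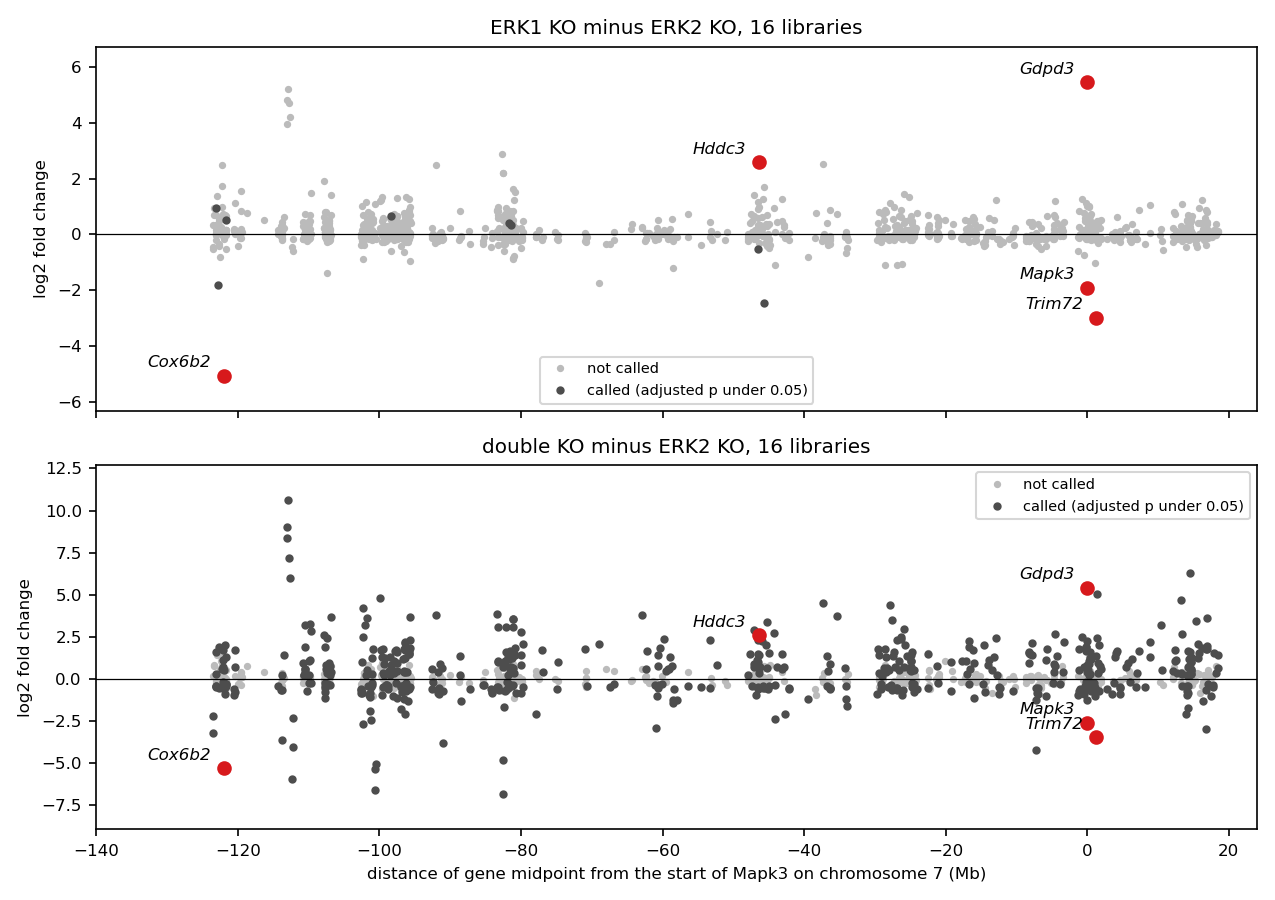
Log2 fold change against distance from the start of Mapk3 for every tested gene of chromosome 7, in ERK1 KO minus ERK2 KO (top) and double KO minus ERK2 KO (bottom), 16 libraries each. Mapk3 and the 4 genes on the chromosome are red, and dark points are called genes. In the top panel Gdpd3 stands at 5.46 and Cox6b2 at -5.07. None of the other genes within 1 Mb of Mapk3 is called there, beside 0.722% of all genes.

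The nearest 3 tested genes on each side of each of the 7 were read in the same way. Of 38 such genes, leaving out Mapk3, 6 (15.8%) were called for the Erk1-null groups in 21 libraries and 10 (26.3%) in the 16, beside backgrounds of 23.1% and 31.2%. For ERK1 KO against ERK2 KO it was 0 of 38 by edgeR in both, beside 0.00707% and 0.722% of all genes. By DESeq2 in the 21 it was 0, beside 21 of 14154 genes. At an unadjusted p under 0.05 there were 3 in the 21, beside 9.79% of all genes. In the 16 there were 8, and the share of all genes at that threshold is not given here. The median log2 difference of the 38 for the Erk1-null groups was 0.04 with 21 and 0.05 with 16 libraries, beside 0.006 and 0.001 over all genes.

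Beside Gdpd3, the next gene in the direction of transcription, Ypel3, differed by -0.33 ± 0.13 among the 16 (edgeR adjusted p = 0.0591), and Ppp4c by -0.08 ± 0.05. Beside Trim72, the leukocyte integrins Itgam and Itgax rose, by 1.45 ± 0.50 and 2.67 ± 0.63 (edgeR adjusted p = 0.0368 and 0.00532), opposite in sign to Trim72. With 21 libraries Itgam was at 1.42 and lost its call without double KO 4 or ERK2 KO 1, 2, 4, 6 or 7. Itgax in ERK1 KO against ERK2 KO was at 0.33 (edgeR adjusted p = 0.844). Pycard, on the other side of Trim72, was at 0.57 ± 0.30 and was not called.

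Around Hddc3, 5 of the 6 nearest genes were called for the Erk1-null groups among the 16, beside 31.2% of all genes. Fes, a tyrosine kinase, rose by 1.18 ± 0.24 (edgeR adjusted p = 0.00208), Rccd1 by 1.20 ± 0.31 (edgeR adjusted p = 0.00979) and the myosin chaperone Unc45a by 0.30 ± 0.09 (edgeR adjusted p = 0.0222). Prc1, a spindle protein, rose by 1.73 ± 0.63 (edgeR adjusted p = 0.0457) and the glycan enzyme Man2a2 fell by 0.43 on the log2 scale (edgeR adjusted p = 0.00578). With 21 libraries only Fes kept its call of these 5 (0.92, edgeR adjusted p = 0.0163). Furin, a protease next to Fes, was at -0.08 and was not called. For ERK1 KO against ERK2 KO among the 16, none of these 5 was called, beside 0.722% of all genes. The lowest edgeR adjusted p was 0.0919, for Fes. All 5 were called for double KO against ERK2 KO, beside 51.2% of all genes. Between the Erk1-null groups none of them was called, beside 45.9%.

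Around Cox6b2, 1 of the 6 nearest genes was called among the 16, beside 31.2% of all genes. It was the histone methyltransferase Suv420h2, at -0.25 ± 0.09 (edgeR adjusted p = 0.0417). With 21 libraries Suv420h2 was at -0.36, and its call was lost without ERK2 KO 4. Around Srp54a, Psma6, a proteasome subunit, was at -0.15 ± 0.05 (edgeR adjusted p = 0.0374) and the other neighbours lay between -0.07 and 0.24. Around Gm3435, Ermard, which shares sequence with it, was at 0.26 ± 0.11 (edgeR adjusted p = 0.0902). Erdr1 had tested neighbours on 1 side only, of which G530011O06Rik was at 1.34 ± 0.55 (edgeR adjusted p = 0.0722).

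**Figure D4:**
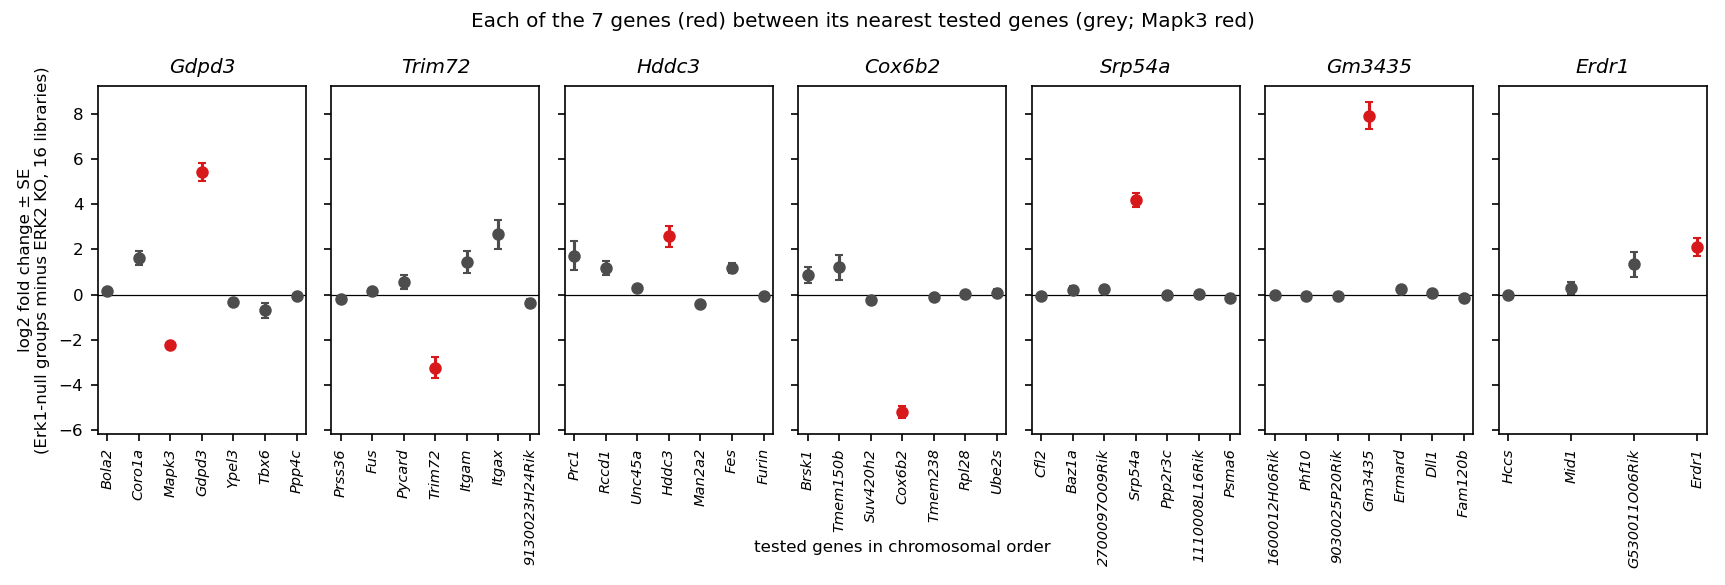
Log2 fold change with SE of each of the 7 genes (red) and its nearest tested genes in chromosomal order (grey, with Mapk3 red), Erk1-null groups minus ERK2 KO, 16 libraries. The value of Gm3435 depends on the prior count, since ERK2 KO had 0 counts. Itgax at 2.67 is the highest grey point.

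Genes of the same families were set beside the 7, from lists chosen by function. Of 12 tested subunits of cytochrome c oxidase other than Cox6b2, 0 rose and 1 fell in the Erk1-null groups by edgeR, beside 23.1% of all genes called. The 1 was Cox7a1, the muscle and heart form of subunit VIIa, at -0.81 ± 0.17 (edgeR adjusted p = 0.0107). Cox6b1, the form of the same subunit found in most tissues, was at 171 ± 28.4 CPM in ERK1 KO, 245 ± 36.1 in double KO and 168 ± 11.9 in ERK2 KO, a log2 difference of 0.16 ± 0.08 (edgeR adjusted p = 0.166). Scaling by library size alone moved the median of all genes from 0.006 to 0.129, and 5 of the 12 were then called higher. In double KO against ERK2 KO 5 of the 12 rose and 1 fell, beside 44.6% of all genes called. Against ERK1 KO, 8 of the 12 rose in double KO in 21 libraries and 10 in the 16, beside 24% and 45.9% of all genes called.

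Of 4 tested glycerophosphodiester phosphodiesterases other than Gdpd3, 2 rose and 0 fell, beside 23.1% of all genes called. Gde1, a membrane glycerophosphoinositol phosphodiesterase, rose by 0.91 ± 0.24 (edgeR adjusted p = 0.0172), and Gdpd5, which releases choline from glycerophosphocholine, by 1.10 ± 0.30 (edgeR adjusted p = 0.0176). Gde1 among the 16 was at 40.9 ± 11.2 CPM in ERK1 KO and 39.95 ± 7.68 in ERK2 KO, and at 128 ± 24.6 in double KO, so ERK1 KO and ERK2 KO lay within each other's spread. Of 6 tested genes of lysophospholipid signalling, the receptor Lpar5 rose by 1.13 ± 0.39 (edgeR adjusted p = 0.0444). Enpp2, the secreted enzyme autotaxin that makes lysophosphatidic acid, fell by 0.79 on the log2 scale (edgeR adjusted p = 0.0371). With 1 library left out, Lpar5 stayed called only without ERK1 KO 2, 3, 4 or 7, double KO 3 or 7, or ERK2 KO 7. Enpp2 was no longer called without double KO 3 or 6 or ERK2 KO 1, 2, 4 or 6. Among the 16, neither was called for ERK1 KO against ERK2 KO, with Lpar5 at 0.48 (edgeR adjusted p = 0.58) and Enpp2 at -0.3 (edgeR adjusted p = 0.609). Both differed between double KO and ERK1 KO there, Lpar5 by 1.39 (edgeR adjusted p = 0.00667) and Enpp2 by -1.43 (edgeR adjusted p = 0.000468).

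Of 7 tested members of the signal recognition particle and its receptor, 0 rose and 1 fell, Srp72 at -0.23 ± 0.08 (edgeR adjusted p = 0.0351), beside 23.1% of all genes called. In double KO against ERK2 KO 4 of the 7 fell and 0 rose, beside 44.6%. With the 16 libraries Srp9, Srp72 and Srpr fell, and under scaling by library size alone 1 rose and 0 fell. The Srp72 call was lost without double KO 2 or 5 or ERK2 KO 4, 6 or 7, and without double KO 7 the count that fell was 3. Hddc2, the other HD-domain gene listed, was at 0.48 ± 0.22 (edgeR adjusted p = 0.109).

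All 7 tested partners of Trim72 in membrane repair rose, opposite in sign to Trim72: Dysf, Cav1, Anxa1, Anxa2, Anxa6, Myof and Ptrf. Of all genes, 23.1% were called in this contrast. The median log2 difference of the 7 partners was 1.11, beside 0.006 for all genes. Myof, a ferlin, rose by 1.82 ± 0.42 (edgeR adjusted p = 0.0121) and Dysf, the ferlin of muscle, by 0.84 ± 0.20 (edgeR adjusted p = 0.0127). With the 16 libraries 6 of 7 were called beside 31.2% of all genes, Cav1 being at 1.14 (edgeR adjusted p = 0.0537). The count was 4 of 7 without ERK2 KO 2, 4, 6 or 7. For double KO against ERK1 KO, 4 of the 7 were called in 21 libraries beside 24% of all genes, and 6 in the 16 beside 45.9%. For ERK1 KO against ERK2 KO in 21 libraries, 0 of the 37 tested genes of all the lists were called by edgeR, beside 0.00707% of all genes. By DESeq2 it was 0, beside 21 of 14154 genes. Of the 37, 5 had an unadjusted p under 0.05, beside 9.79% of all genes. The macrophage marker sums given above were highest in double KO too, and their part in this was not tested.

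The genes most like each of the 7 were ranked by Pearson's r of log2 CPM over 21 libraries, given as a description with shared libraries and groups. Gdpd3 and Srp54a, on different chromosomes, were each other's closest gene (r = 0.946). Gdpd3 was also the closest to Gm3435 (r = 0.887). The closest to Trim72 was Ube2e1, a ubiquitin-conjugating enzyme (r = 0.866), followed by Mapk3 (r = 0.862). For Hddc3 it was its immediate neighbour Unc45a (r = 0.825), and for Cox6b2 the mitochondrial ATPase Atad1 on chromosome 19 (r = 0.868). Erdr1 had the weakest match, Trip6 (r = 0.765).

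A430105I19Rik on chromosome 2 came second for both Gdpd3 (r = 0.905) and Srp54a (r = 0.888). It was at 5.53 ± 1.11 CPM in ERK1 KO, 6.54 ± 1.62 in double KO and 2.58 ± 0.389 in ERK2 KO among the 16, a log2 difference of 1.08. Lamb2, a laminin chain, ranked next for Gdpd3 (r = 0.890) and second for Gm3435 (r = 0.868).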

How the data were processed

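The table the authors deposited holds unnormalised whole counts of reads by gene symbol in 21 liver libraries. The submitters' processing notes name STAR and HTSeq with FastQC and Trimmomatic, edgeR and DESeq2, and the builds GRCm38 and mm10. The strand setting of the counting is not stated in the sources used here, so reads of overlapping antisense genes cannot be told apart. Per the labels' protocols, NEBNext Ultra RNA kits were used and both ends of fragments were sequenced. Columns were matched to samples by title, and 0 columns were left unused. Groups follow the genotype labels, and replicate numbers only name libraries.

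The count test was that of edgeR 4.0.16 (R 4.3.3): filterByExpr (14154 genes kept), TMM scaling, a quasi-likelihood fit to all 21 libraries with a mean per group, and the F test with Benjamini-Hochberg adjustment at 0.05. The Erk1-null contrast is the mean of ERK1 KO and double KO minus ERK2 KO. The SE of a log2 fold change is the absolute value over the root of F. CPM is the count over the deposited library total. The fit was tested on simulated data. Alternatives were library-size and DESeq2 size-factor scaling, DESeq2 1.42.0, no filter, fitting only compared groups, each library left out, and a 5 Mb window. The fit of 16 libraries was added with results known.

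The members, the gene lists and the tests were chosen with earlier results of these data known. Named genes are the 7, Mapk3, the nearest 3 tested genes on each side, the 5 called genes within 1 Mb of Mapk3 and the 10 with at least 1 CPM that changed most between the Erk1-null groups and ERK2 KO, the 3 genes most like each of the 7 and any gene of the lists. Results of 2 genes are not reported here. Serpina3c, Cnksr1, Kif12, Akr1c13, Plekhg2 and Cib1 fall outside the rule and were chosen after their values were seen. Positions came from RefSeq for GRCm38.p6, found for 99.5% of symbols (23204 by symbol, 1096 by synonym). Promoters came from RefSeq, with an entry for 6 of the 7, and shared 100-base stretches were counted in GENCODE transcripts of GRCm38. No pair of libraries was a duplicate: over 210 pairs and 11070 genes, the lowest mean chi-square per gene was 41.6.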

Additional observations from a re-analysis of the deposited data

Results flagged for a closer look

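Of 48 groups of levels examined for the 7 genes and Mapk3 in the 21 and the 16 libraries, 7 held 1 library far from the others by Dixon's criterion, which chance meets in about 1 in 20 groups. With 21 libraries, Mapk3 stood apart at 39.9 CPM in ERK1 KO 2 and at 36.5 CPM in double KO 7, and Trim72 at 1.34 CPM in double KO 7. Cox6b2 stood apart at 0.535 CPM in ERK1 KO 6 in both sets of libraries, still below the lowest ERK2 KO library among the 16. With the 16 libraries, Gdpd3 stood apart at 43.5 CPM in double KO 5 and Trim72 at 0.154 CPM in double KO 4, which is 7 counts.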

How the results depend on the processing

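No paired analysis was possible because replicate numbers were given in order and tie no library to another. For ERK1 KO against ERK2 KO, the number of genes called was 21 with DESeq2, 0 with only the compared groups fitted, 103 with the 16 libraries and 0 to 2 with 1 library left out. The number of the 7 called was 0 with only the compared groups, 7 with the 16 and 0 to 1 with 1 library left out. Between double KO and ERK2 KO, the number of the 7 called was 2 under library-size scaling and under DESeq2, 7 with the 16 and 1 to 4 with 1 library left out. For the Erk1-null groups it was 2 under DESeq2, 7 with the 16 and 1 to 4. Of 14154 genes, double KO against ERK2 KO had 6747 called under library-size scaling and 6720 under DESeq2. The Erk1-null groups had 4124 called under DESeq2.

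Genes called for the Erk1-null groups ranged from 1804 to 5297 with 1 library left out, moving by over 1.5 times without double KO 7 or ERK2 KO 1, 2 or 4. Between double KO and ERK1 KO the count was 1520 with only the compared groups, 6551 with the 16 and 2094 to 5609 with 1 left out, the latter moved by ERK1 KO 1 or 4 or double KO 4 or 7. Genes called for double KO against ERK2 KO were 5398 to 7522 with 1 left out. Neighbours of Mapk3 called for the Erk1-null groups were 34 in the 5 Mb window and 6 to 20 with 1 left out, moved by ERK1 KO 1, double KO 4 or ERK2 KO 1, 2, 4 or 7. Under library-size scaling they were 17 higher and 1 lower, against 10 and 5, and over all genes 3404 and 541 against 1994 and 1273. For double KO against ERK1 KO the neighbours were 6 with the compared groups, 28 with the 16, 27 in the wider window and 9 to 25 with 1 left out; for double KO against ERK2 KO they were 61 in the wider window and 25 to 34. No sign of a called difference in the 7 reversed, a check that covered only Cox6b2, the 1 of the 7 called with all 21 libraries. Depth limits Trim72 and Gm3435, which rest on 0 to 51 counts per library. The causes of these movements were not tested.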

Other observations

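The largest called differences between the Erk1-null groups and ERK2 KO in 21 libraries were in genes other than the 7. Sult2a1, a sulfotransferase of steroids and bile acids, led with a log2 difference of 8.52 ± 1.54 (edgeR adjusted p = 0.0107), and among the 16 was at 13.6 ± 20.97 CPM in ERK1 KO (SD, n = 5), 613 ± 102.6 in double KO (n = 6) and 0.342 ± 0.486 in ERK2 KO (n = 5). Sult2a5 of the same cluster differed by 6.37 ± 1.24 (edgeR adjusted p = 0.0107). Both lie on chromosome 7, between Cox6b2 and Hddc3, Sult2a1 at chr7:13796246-13837410. Unlike the 7, Sult2a1 differed between the Erk1-null groups among the 16, by 5.39 (edgeR adjusted p = 0.00142), and ERK1 KO against ERK2 KO was not called there (5.21, edgeR adjusted p = 0.0712). Gpnmb, a glycoprotein of macrophages, differed by 6.54 ± 1.63 (edgeR adjusted p = 0.0140), and among the 16 ERK1 KO and ERK2 KO were at 0.154 ± 0.215 and 0.134 ± 0.0864 CPM.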
